A study of Caenorhabditis elegans with 8 samples.

Results

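The genes described are 10 Argonautes of the germ line and of the endogenous small interfering RNA (siRNA) pathways of *Caenorhabditis elegans*: alg-3, alg-4, ergo-1, rde-1, prg-1, csr-1, wago-1, wago-4, hrde-1 and nrde-3. They were chosen by name, and each was found in the platform annotation under its present symbol with 1 probe set of its own, so all 10 of 10 were measured, out of 25478 genes with a probe set. In the RefSeq annotation of assembly WBcel235 they lie on 6 chromosomes: prg-1 and wago-1 on I, wago-4 on II, alg-4 and hrde-1 on III, alg-3 and csr-1 on IV, ergo-1 and rde-1 on V, and nrde-3 on X. Total RNA of whole worms on day 1 of adulthood came from 4 N2 (wild-type) samples and 4 samples of the microRNA mutant mir-71(n4115), all untreated and fed *Escherichia coli* OP50. Each sample was hybridised to 1 Affymetrix array, and the deposited values were log2 signals. Nothing in the labels says that a group's samples were grown apart, so every p-value rests on a spread that may be technical.

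Argonautes are the proteins that hold a small RNA and use it to find a complementary transcript. In the worm, ALG-3 and ALG-4 bind 26G siRNAs during sperm formation, and ERGO-1 binds 26G siRNAs in oocytes and embryos. PRG-1 is the Piwi protein that binds the worm's piRNAs, and RDE-1 takes up the first siRNAs cut from long double-stranded RNA. These primary Argonautes lead RNA-dependent RNA polymerases to make 22G siRNAs, which secondary Argonautes bind. Among those, CSR-1 targets genes that the germ line expresses, WAGO-1 and WAGO-4 act in germ granules of the cytoplasm, HRDE-1 silences in germline nuclei across generations, and NRDE-3 silences in nuclei of the soma.

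Across probe sets, wild-type replicate 4 had correlations of 0.986 to 0.993 to mutant arrays but only 0.961 to 0.976 to wild-type replicates 1 to 3, which matched one another at 0.990 to 0.993. Its label puts it in the wild type, where it was kept, and the Argonautes and each gene list are counted with and without it. The array was singled out by its own values, which resemble those of the mutants. Leaving it out took the genes that passed the test below from 469 to 9401 of 25478. All p-values, fold changes and counts without it are therefore a description and no separate test. Over all genes replicate 4 lay nearer to the mutant mean than to the mean of wild-type replicates 1 to 3 in 72.2%, and over the 10 Argonautes in 9. It lay inside the range of the 4 mutant arrays for 6 of the 10, where 53.3% of all genes did so.

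With all 8 arrays, 0 of the 10 Argonautes passed the test (limma, Benjamini-Hochberg over 26192 probe sets, threshold 0.05), where 1.84% of all genes passed, 0.616% higher and 1.22% lower in the mutants. With the trend of each array with gene length removed, 0 of 10 passed again and 1.73% of all genes did. At an unadjusted p under 0.05 there were 4, namely csr-1, prg-1, ergo-1 and nrde-3, where 26.1% of all genes reached it. The groups of 4 arrays overlapped for all 10 Argonautes, while 11.2% of the 26192 probe sets had groups that did not overlap. Mutant means were higher for 8, where 51.8% of all genes were higher, and lower for alg-4 and wago-1. The median log2 difference was 0.27, against 0.016 over all genes. With the length trend removed it was 0.17, against 0.012 over all genes, and the sign of 2 Argonautes turned. Without wild-type replicate 4, csr-1, prg-1, wago-4, ergo-1 and nrde-3 rose and wago-1 fell, 6 of 10 where 36.9% of all genes passed. In that fit 19.1% of all genes rose and 17.8% fell. Wild-type replicates 1 to 3 did not overlap the mutants for 7 of the 10, hrde-1 being the seventh, where 43.0% of all genes were separated so. With the length trend removed as well, prg-1, wago-4, nrde-3 and wago-1 still passed, 4 of 10 where 33.9% of all genes did. The members were named with earlier results of these data known, so their share is a description.

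**Figure D1:**
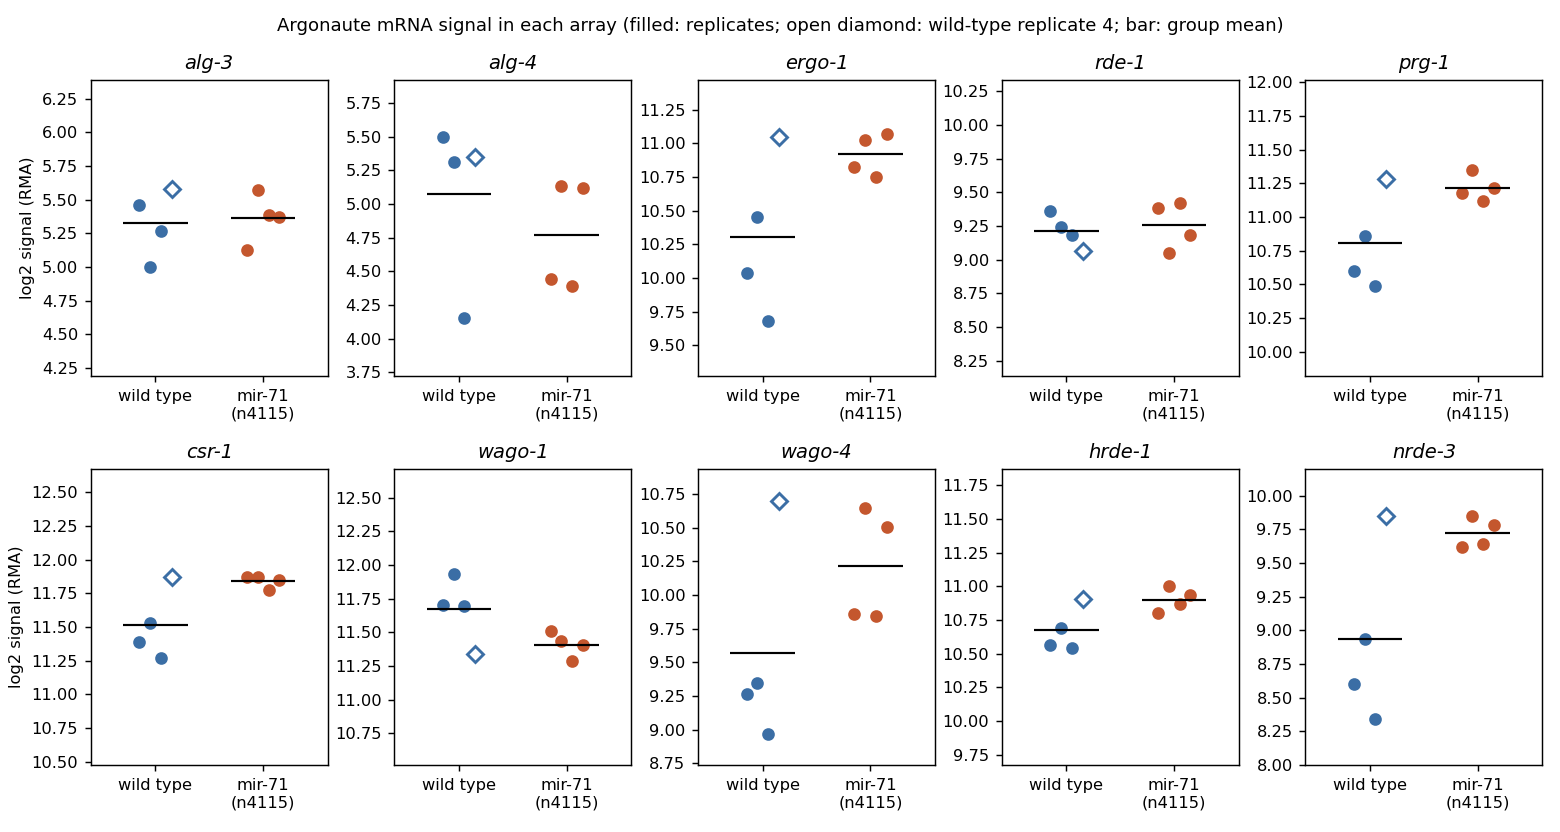
Log2 signal of each Argonaute in the 4 wild-type and 4 mir-71(n4115) arrays, each panel spanning the same height on its own axis; bars are group means and the open diamond is wild-type replicate 4. For ergo-1, prg-1, csr-1, wago-4, hrde-1 and nrde-3 the diamond sits among or above the mutant points, and for wago-1 it sits low with them, while the wild-type and mutant points of alg-3 and rde-1 overlap.

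The sperm Argonautes did not pass with or without that array. alg-3 read 5.46, 5.00, 5.27 and 5.58 in wild-type replicates 1 to 4 and 5.12, 5.57, 5.39 and 5.37 in mutant replicates 1 to 4. The groups covered nearly the same range, both close to the array medians of 5.204 to 5.30, so the signal was near the middle of each array. alg-3 and alg-4 read lower than every other Argonaute described. Its log2 difference, mutant minus wild type, was 0.037 ± 0.16 (SE, n = 4 per group; limma, adjusted p = 0.894), with a 95% interval from -0.32 to 0.39. The sign turned with the trend with gene length removed (-0.051).

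alg-4, the close paralogue of alg-3, read 5.49, 5.31, 4.15 and 5.35 in the wild type and 4.44, 5.13, 4.39 and 5.12 in the mutants. Wild-type replicate 3 was the lowest of all 8 arrays, and mutant replicates 1 and 3 were low as well. The mutant mean lay within the wild-type spread, with a log2 difference of -0.31 ± 0.32 (SE; adjusted p = 0.549) and a 95% interval from -1.02 to 0.41. Without wild-type replicate 3, the difference was -0.61 and still did not pass (adjusted p = 0.226). Deposited values of closely related genes such as these may also share hybridisation, which was not tested.

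Sperm markers are given beside this pair, since the pair acts in sperm formation. Of 30 listed sperm genes 20 had a probe set of their own. Of these 7 fell, where 1.22% of all genes fell, and 0 rose. Mutant means were lower for 18, with a median log2 difference of -0.48. Without wild-type replicate 4, 10 of the 20 fell and 0 rose, where 17.8% of all genes fell. With the length trend removed, 4 fell and 0 rose with all arrays, where 286 of 25434 genes fell. With replicate 4 left out as well, 9 fell and 1 rose, where 4405 and 4206 of those genes did. Their mean log2 signal was 5.26 to 5.49 in the wild-type arrays, replicate 4 included at 5.38, and 4.53 to 4.80 in the mutants. The lowest p belonged to the major sperm protein genes msp-38, which fell by 1.34 (adjusted p = 0.0114), and msp-78, which fell by 1.44 (adjusted p = 0.0127). The mean of replicate 4 thus lay inside the wild-type range, but by gene it did so for 7 of the 20, with 7 above and 6 below wild-type replicates 1 to 3. alg-3 and alg-4 in replicate 4 read 5.58 and 5.35, above both mutant means of 5.36 and 4.77. In whole worms, fewer cells of a type and less RNA per cell cannot be told apart.

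Genes whose profile over the 8 arrays lay nearest to each of the pair were found by the mean absolute difference of gene-centred log2 values. For alg-3 these were the noncoding genes T21B4.18 (0.0468), Y82E9BR.27 (0.0585) and K11G9.10 (0.0593), where the median over all genes was 0.267. All 3 had log2 signals between 2.72 and 4.04, well below the array medians, while alg-3 read 5.00 to 5.58. The values were centred by gene, so the level of signal had no part in the nearness. For alg-4 they were the noncoding gene W04D2.10 (0.141), the sperm gene spe-46 (0.155) and got-1.2, which encodes an aspartate aminotransferase (0.159), with a median over all genes of 0.489. spe-46 shared the low wild-type replicate 3, at 5.03 against 5.89 to 6.31 in the other wild-type arrays. It was picked for its nearness to alg-4, so the shared low array is no separate result.

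ergo-1 had one of the wider differences among the primary Argonautes. It read 10.04, 10.45, 9.68 and 11.05 in the wild type and 10.83, 11.03, 10.75 and 11.07 in the mutants. Wild-type replicates 1 to 3 all lay below every mutant array and replicate 4 lay inside the mutant range. The log2 difference was 0.61 ± 0.26 (SE; limma, adjusted p = 0.180), a ratio of 1.53. Without replicate 4 ergo-1 rose by 0.86 ± 0.18, or 1.82-fold (adjusted p = 0.00618), and with the length trend removed as well the difference was 0.44 (adjusted p = 0.0506) and no longer passed. ergo-1 was the member whose difference shrank most when the length trend was removed, to 0.32 with all arrays.

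rde-1 read 9.37, 9.24, 9.185 and 9.06 in the wild type and 9.38, 9.05, 9.42 and 9.18 in the mutants, ranges that lie almost on top of each other. The log2 difference was 0.046 ± 0.13 (SE; adjusted p = 0.838), with a 95% interval from -0.24 to 0.33, and was -0.0049 without wild-type replicate 4 (adjusted p = 0.980). Here replicate 4 was the lowest wild-type array.

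The Piwi gene prg-1 read 10.596, 10.86, 10.49 and 11.28 in the wild type and 11.17, 11.35, 11.12 and 11.21 in the mutants. The first 3 wild-type arrays lay below all mutants and replicate 4 within them. Its log2 difference was 0.41 ± 0.18 (SE; adjusted p = 0.181). Without replicate 4 prg-1 rose by 0.57 ± 0.12, or 1.48-fold (adjusted p = 0.00739), and still passed with the length trend removed as well (0.55, adjusted p = 0.00887).

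csr-1 read 11.39, 11.53, 11.27 and 11.87 in the wild type and 11.87, 11.88, 11.78 and 11.85 in the mutants. Replicate 4 equalled the mutants to within their own spread of 0.046 (SD, n = 4). The log2 difference was 0.33 ± 0.14 (SE; adjusted p = 0.185). csr-1 rose by 0.44 without replicate 4 (adjusted p = 0.0112) and did not pass with the length trend removed too (0.25, adjusted p = 0.0752).

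The cytoplasmic secondary Argonautes had differences of opposite sign. wago-1 read 11.70, 11.94, 11.70 and 11.34 in the wild type and 11.51, 11.43, 11.29 and 11.41 in the mutants, so wild-type replicates 1 to 3 lay above all mutants and replicate 4 among them. Its log2 difference was -0.26 ± 0.14 (SE; adjusted p = 0.260). Without replicate 4 wago-1 fell by 0.37 (adjusted p = 0.0305), and by 0.43 with the length trend removed as well (adjusted p = 0.0139). It was the 1 Argonaute of the 10 that was lower in that fit and passed.

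wago-4 read 9.27, 9.35, 8.97 and 10.70 in the wild type and 9.86, 10.65, 9.84 and 10.50 in the mutants. Replicate 4 was higher than all other arrays, and the mutants themselves were spread, with replicates 2 and 4 high and 1 and 3 low. The log2 difference was 0.64 ± 0.37 (SE; adjusted p = 0.278). wago-4 rose by 1.02 ± 0.22, or 2.03-fold, without replicate 4 (adjusted p = 0.00701), and by 0.92 with the length trend removed as well (adjusted p = 0.0129). Replicate 4 stood 1.51 above the mean of wild-type replicates 1 to 3, which is farther than the mutants did. Both of these differences share those 3 arrays.

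Of the nuclear Argonautes, hrde-1 read 10.57, 10.69, 10.54 and 10.91 in the wild type and 10.80, 11.001, 10.87 and 10.93 in the mutants. Its log2 difference was 0.22 ± 0.12 (SE; adjusted p = 0.258) with all arrays and 0.30 ± 0.11 without replicate 4 (adjusted p = 0.0517). hrde-1 thus had 3 wild-type arrays below all mutants and still missed the threshold. With limma's array weights, which gave replicate 4 a weight of only 0.17, hrde-1 passed (0.30, adjusted p = 0.0322). In that fit 10466 of 25478 genes passed.

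nrde-3 had the largest difference of the 10. It read 8.60, 8.94, 8.34 and 9.85 in the wild type and 9.62, 9.85, 9.64 and 9.78 in the mutants. Replicate 4 was level with the highest mutant, and the other wild-type arrays were all lower than every mutant. The log2 difference was 0.79 ± 0.29 (SE; adjusted p = 0.138), a ratio of 1.73. Without replicate 4 nrde-3 rose by 1.09 ± 0.15, or 2.14-fold (adjusted p = 8.29e-04), and by 0.92 with the length trend removed as well (adjusted p = 0.00161).

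**Figure D2:**
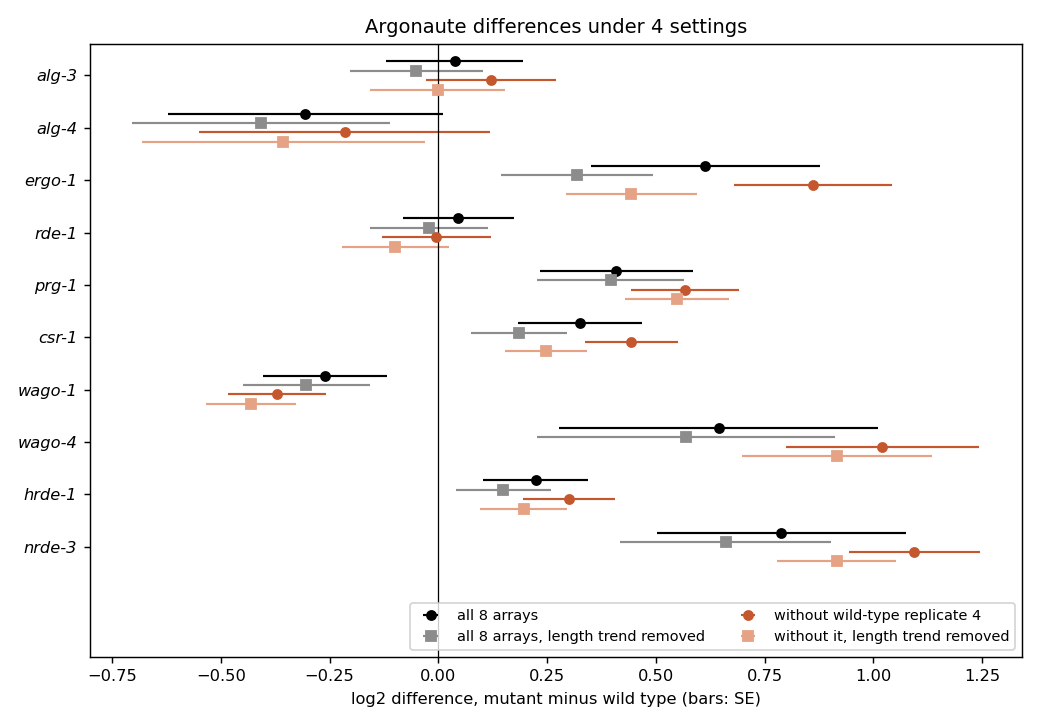
Log2 difference, mutant minus wild type, with its standard error for each Argonaute, with all 8 arrays and without wild-type replicate 4, each before and after removal of the trend with gene length. Leaving out replicate 4 moved wago-1 and rde-1 to the left and all the others to the right. Removing the length trend moved every gene to the left, ergo-1 the farthest.

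The members also differed in how alike their profiles were. The nearest pair was csr-1 and prg-1, with a mean absolute difference of gene-centred values of 0.0678 over the 8 arrays, followed by csr-1 and hrde-1 at 0.0740. The profiles of ergo-1 and nrde-3 differed by 0.110 and those of wago-1 and rde-1 by 0.179. alg-3 and alg-4 differed by 0.388, and wago-1 and nrde-3 were the farthest apart at 0.705. The wild-type standard deviation, replicate 4 included, was larger than that of the mutants in 9 of the 10 genes, rde-1 being the exception. Over wild-type replicates 1 to 3 alone it was also the smaller for hrde-1 (0.082 against 0.087) and wago-4 (0.20 against 0.42). The share over all genes was not counted.

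Other genes of the small RNA pathways were counted by list. Of 82 listed, 78 were measured, and 0 passed with all arrays (limma). An unadjusted p under 0.05 was found for 11 of the 78, where 26.1% of all genes reached it. Mutant means were higher for 49 of the 78, or 62.8% where 51.8% of all genes were, and the median log2 difference was 0.054. Without wild-type replicate 4, 18 rose and 16 fell, where 19.1% of all genes rose and 17.8% fell. Removing the length trend with all arrays turned the sign of 17 of the 78 and took the median to -0.018.

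Among 12 other Argonautes 10 were higher, with a median of 0.23, and 6 rose and 1 fell without replicate 4. The lowest p there belonged to ppw-1, an Argonaute needed for RNA interference in the germ line, which went the other way: it read 5.84, 5.90, 6.02 and 4.499 in the wild type and 4.32, 4.05, 3.90 and 4.53 in the mutants (log2 difference -1.36 ± 0.32 SE; adjusted p = 0.0689). Replicate 4 lay in the mutant range for ppw-1, and wild-type replicates 1 to 3 stood apart from all other arrays. P granule proteins, components of the perinuclear germ granules, had higher mutant means in 10 of 12, with a median of 0.21, and 4 rose and 0 fell without replicate 4. The lowest p of that list was that of znfx-1, a helicase that works with WAGO-4 (0.36 ± 0.13 SE, adjusted p = 0.144), and its difference shrank to 0.063 with the length trend removed. Beside the counts of these lists, 19.1% of all genes rose and 17.8% fell without replicate 4.

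Factors that make 26G siRNAs were lower in 6 of 9, with a median of -0.075. Their lowest p was that of henn-1, the methyltransferase that protects the ends of piRNAs and of ERGO-1 siRNAs (-0.39 ± 0.18 SE, adjusted p = 0.197). Factors that make or process piRNAs were lower in 8 of 12, with a median of -0.16, and erh-2 of the piRNA processing complex had the lowest p (-0.80 ± 0.30 SE, adjusted p = 0.145). prg-1 itself was higher. Without replicate 4 the 26G factors held 0 risen and 4 fallen, and the piRNA factors 1 risen and 5 fallen, against the same 19.1% and 17.8% of all genes. With the length trend removed as well, 0 of the piRNA factors rose and 2 fell, and 0 of the 26G factors rose and 4 fell. With all arrays, that removal took the median of the 26G factors to -0.24 and that of the piRNA factors to -0.052. The sign turned for 3 of the 9 26G factors and 4 of the 12 piRNA factors.

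The polymerase and mutator factors that make 22G siRNAs had 11 of 19 higher and a median of 0.027, which turned to -0.11 with the length trend removed. Without replicate 4, 3 rose and 5 fell, where 19.1% of all genes rose and 17.8% fell. In that list mut-15, a mutator focus protein, had the lowest p with all arrays (0.30 ± 0.11 SE, adjusted p = 0.140). Its 4 mutant arrays at 10.604 to 10.66 all lay above the wild type, which reached 10.53, and 11.2% of the 26192 probe sets also had groups that did not overlap. Nuclear RNA interference and chromatin factors had 8 of 10 higher, with a median of 0.14, and the helicase gene emb-4 had the lowest p (0.50 ± 0.21 SE, adjusted p = 0.169). With the length trend removed that median became -0.010 and emb-4 turned to -0.047. Without replicate 4, 3 of that list rose and 1 fell, beside the same 19.1% and 17.8% of all genes. Of 4 genes for import of double-stranded RNA 3 were higher, and sid-2, an intestinal receptor for such RNA, had the lowest p (0.36 ± 0.14 SE, adjusted p = 0.149). Of these 4, 1 rose and 0 fell without replicate 4, beside those same shares of all genes.

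**Figure D3:**
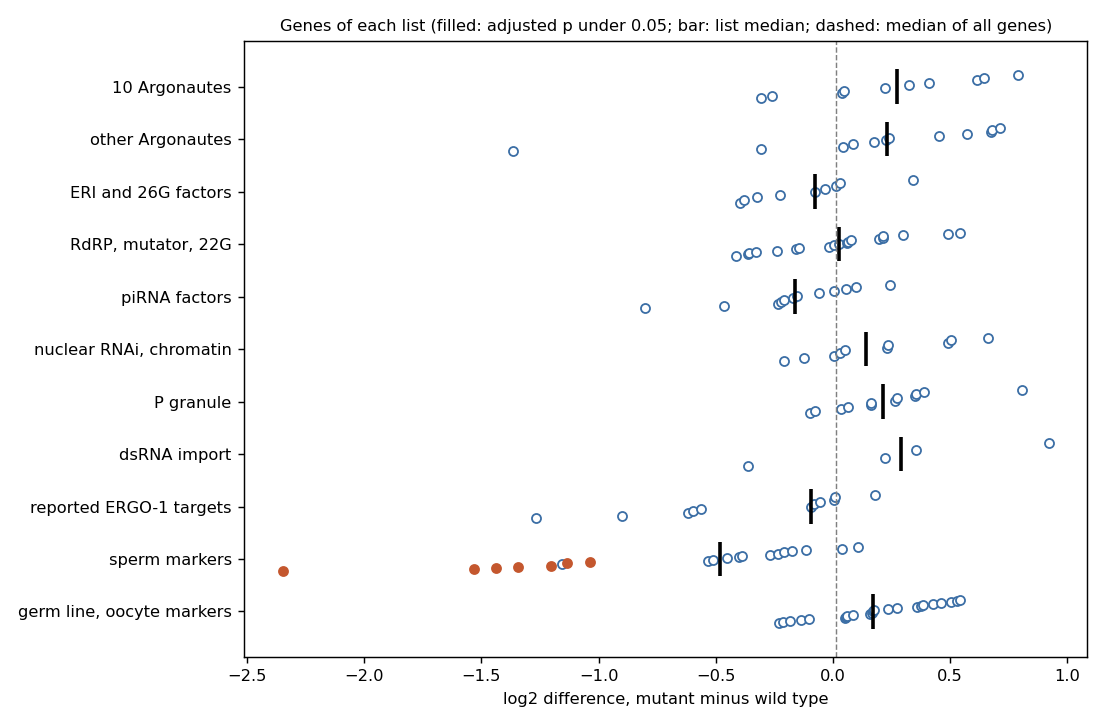
Log2 difference, mutant minus wild type with all 8 arrays, of each measured gene of the 10 Argonautes, of the other pathway lists, of reported ERGO-1 targets and of sperm and germ line markers; bars are list medians and the dashed line is the median of all genes. The filled points, which passed the test, are all sperm markers, and all Argonaute points are open.

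ERGO-1 siRNAs silence a set of target genes. A list of 12 such genes was written from general knowledge, its membership was not checked against a published list, and 11 were measured. With all arrays 0 passed (limma), and 2 had an unadjusted p under 0.05, where 26.1% of all genes did. In the mutants 8 of 11 were lower, with a median of -0.093. K02E2.6 had the lowest p and read 10.68, 10.59, 10.78 and 9.0 in the wild type and 9.0, 8.98, 9.02 and 8.98 in the mutants. Replicate 4 and all mutants lay between 8.98 and 9.02, far below wild-type replicates 1 to 3. Its log2 difference was -1.27 ± 0.36 (SE; adjusted p = 0.0936), and without replicate 4 it fell by 1.69 (adjusted p = 5.42e-05).

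Without replicate 4, 5 of the 11 fell and 0 rose, where 17.8% of all genes fell. Besides K02E2.6 these were F55C9.5 (-1.36), fbxb-37 (-0.93), C44B11.6 (-0.90) and W04B5.1 (-0.82), named after their values were seen. The other 6 did not pass. Of those, C36A4.11 at 2.27 to 2.85 and Y82E9BR.20 at 3.84 to 4.23 read below the array medians in every array. Detection above background was not assessed, so their flat values say little. With the length trend removed as well, the same 5 fell and 1 rose, W04B5.2 by 0.42 (limma, adjusted p = 0.0228). In that fit 33.9% of all genes passed. The list's mean log2 signal was 6.64 to 6.88 in wild-type replicates 1 to 3, 5.88 in replicate 4 and 6.02 to 6.30 in the mutants, so replicate 4 was the lowest array. In replicate 4 and the mutants ergo-1 was higher than in wild-type replicates 1 to 3. Whether the ergo-1 signal has a part in the level of these genes was not tested.

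**Figure D4:**
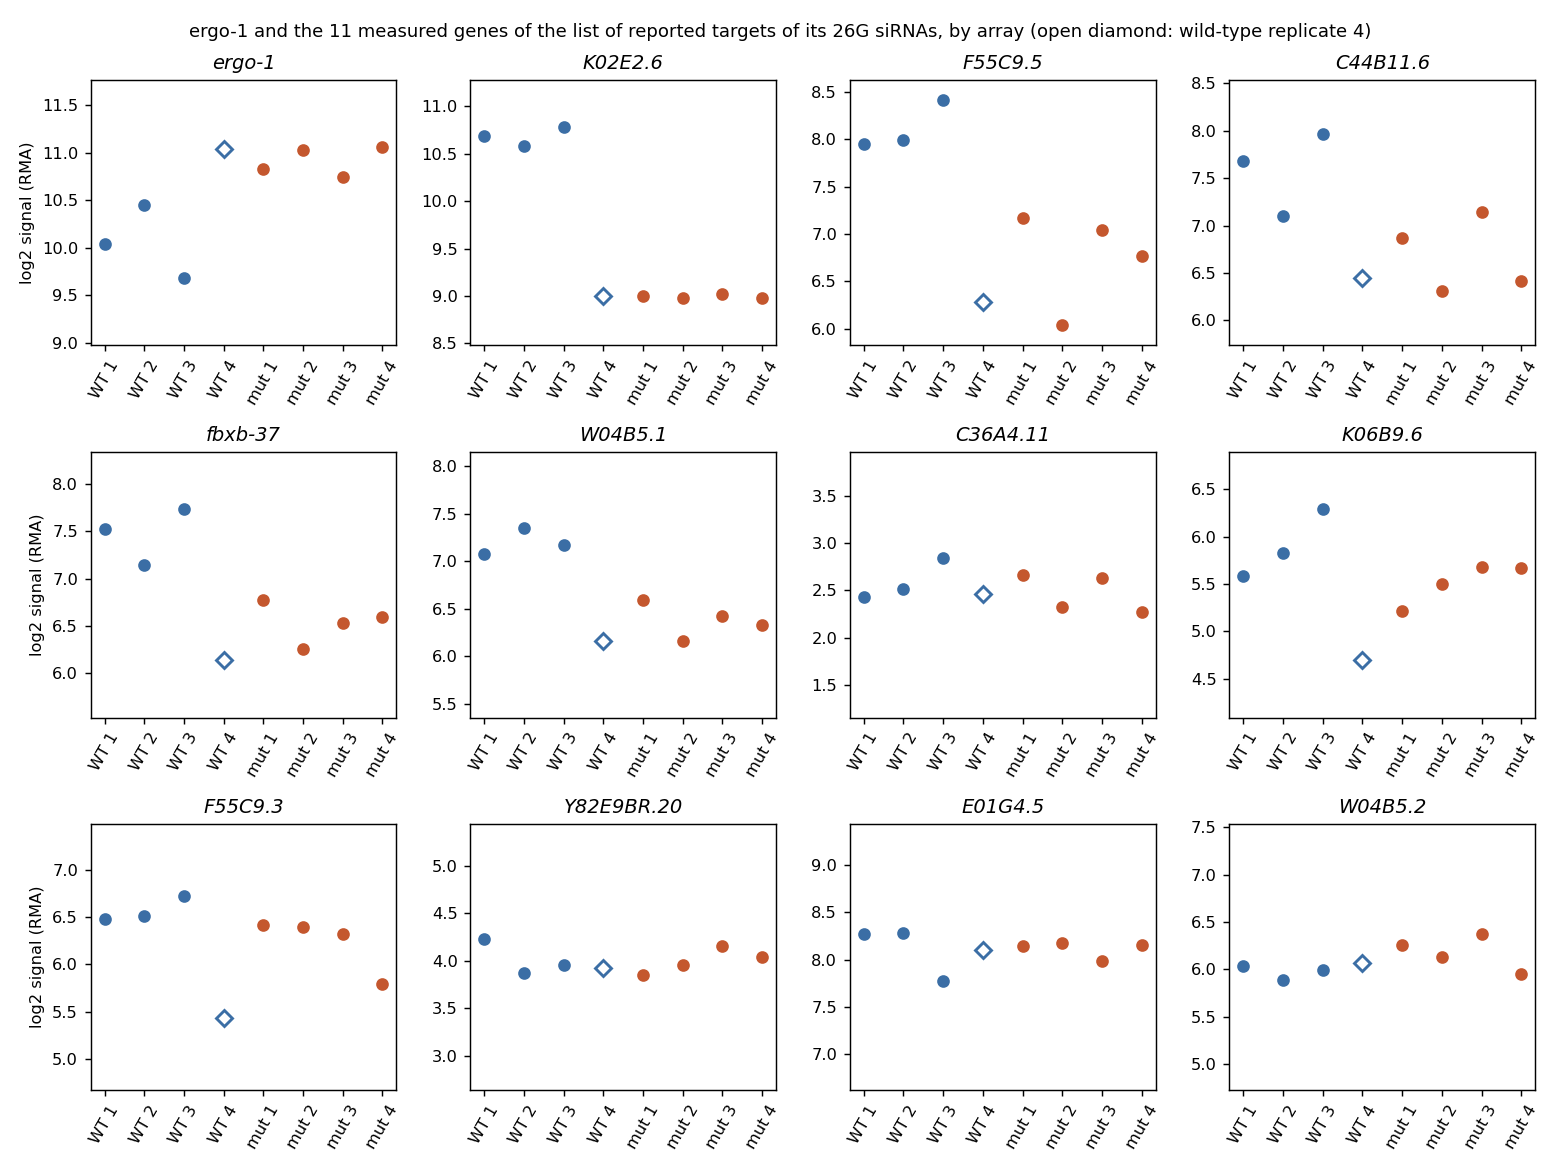
Log2 signal by array of ergo-1 and of the 11 measured genes listed as targets of its 26G siRNAs, each panel spanning the same height; the open diamond is wild-type replicate 4. K02E2.6 reads 8.98 to 9.02 in replicate 4 and the mutants against 10.59 to 10.78 in wild-type replicates 1 to 3, while E01G4.5, Y82E9BR.20 and W04B5.2 stay within narrow ranges. For Y82E9BR.20 that range, 3.84 to 4.23, lies below the array medians.

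Markers of other tissues were counted in the same way. Of 23 germ line and oocyte markers 18 had higher mutant means and 0 passed (limma), with a median of 0.17. An unadjusted p under 0.05 was found for 2, where 26.1% of all genes reached it. Without replicate 4, 7 rose and 0 fell. The lowest p with all arrays was that of the stem cell regulator fbf-1 (0.36 ± 0.14 SE, adjusted p = 0.152), for which replicate 4 was the lowest array at 7.95. The list's mean log2 signal was 10.90 to 11.11 in wild-type replicates 1 to 3, 11.29 in replicate 4 and 11.11 to 11.30 in the mutants. Of 12 epidermis and moulting markers 2 rose, noah-2 by 1.14 (adjusted p = 0.0426) and noah-1 by 0.92 (adjusted p = 0.0493), and 8 rose without replicate 4. That list read 7.55 to 7.92 in wild-type replicates 1 to 3, 8.59 in replicate 4 and 8.42 to 8.69 in the mutants.

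Intestine markers had differences of both signs, with mutant means lower for 7 of 10 and higher for 3, and a median of -0.15. The groups did not overlap for 4 of the 10, where 11.2% of the 26192 probe sets had such groups. Of 10, 0 passed (limma) and 3 had an unadjusted p under 0.05, where 26.1% of all genes did. Of those 3, the gut esterase gene ges-1 was lower (-1.05, adjusted p = 0.0534), while the intermediate filament gene ifb-2 (0.61, adjusted p = 0.0763) and the intestinal transcription factor gene elt-2 (0.62, adjusted p = 0.118) were higher, the last 2 named after their values were seen. Without replicate 4, 3 rose and 4 fell. The list's mean was 10.05 to 10.10 in wild-type replicates 1 to 3, 9.91 in replicate 4 and 9.91 to 9.98 in the mutants. For all 3 tissues, 19.1% of all genes rose and 17.8% fell without replicate 4. The part of these tissues in the Argonaute values was not tested.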

How the data were processed

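The authors deposited log2 signals of 29317 probe sets on each of 8 arrays. Partek 6.6 and RMA are named in the submitters' processing notes. RMA subtracts background, brings arrays to a common distribution and combines the probes of a set, and its settings are unstated here. The log2 scale was read from the values and the use of RMA. Such values cannot show a change shared by most genes. Detection above background was not assessed, since scanner files were not used.

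Probe sets were named by the platform annotation in GEO, of an older date, and updated through the Entrez identifier to RefSeq (WBcel235): 26192 had a gene, 646 of them several, which name none, and 25495 matched. No coordinates are printed, because the build behind the array is unstated. Each gene was taken at its brightest probe set. In the lists, mut-2 was read as rde-3 and cde-1 as cid-1.

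The 2 groups were compared in R 4.3.3 by limma 3.58.1 (lmFit, eBayes, 2-sided, no covariate), with Benjamini-Hochberg adjustment over 26192 probe sets and a threshold of 0.05. The fit was tested on simulated data with independent noise in each array. Those data held no array that deviates across many genes, so they cannot show how the fit behaves with wild-type replicate 4. Length trends were removed per array by lowess (span 0.3) of the deviation from the mean array on gene length in WBcel235. The members and lists were chosen with earlier results of these data known. Named genes were every member, up to 2 risen and 2 fallen genes of lowest p per list, or the gene of lowest p where none passed, and the 3 profiles nearest to alg-3 and alg-4. The precision was limited by 4 arrays per group. Same-numbered arrays of the groups deviated together at r of 0.19, -0.11, 0.37 and 0.27, so the numbers were not taken as pairs.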

Additional observations from a re-analysis of the deposited data

Results flagged for a closer look

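alg-4 read 4.15 in wild-type replicate 3, a value far below wild-type replicates 1, 2 and 4 at 5.31 to 5.49: its gap to the nearest was 0.864 of the group's range, above Dixon's 95% critical value for 4 samples. Of the 20 groups of 4 checked it was the 1 that stood out, and chance flags about 1 in 20.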

How the results depend on the processing

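The count of 0 Argonautes and 0 other pathway genes was the same under quantile normalisation, subtraction of array medians, removal of the length trend, a trended, robust eBayes, omission of the dimmest 40% of probe sets, the unmoderated model, the median over probe sets and an adjusted p of 0.01. Array weights, which gave wild-type replicate 4 a weight of 0.17, called 7 Argonautes, 40 other pathway genes and 10466 genes in all. The length trend removed with replicate 4 left out gave 4, 30 and 8611. Leaving out 1 array gave 0 to 6 Argonautes, 0 to 34 pathway genes and 38 to 9401 genes in all, and the highest of each came without wild-type replicate 4; without any other array 0 Argonautes and 0 pathway genes passed and 38 to 178 genes did. In all, 469 genes were called with all arrays, 18 with the unmoderated model and 23 at an adjusted p of 0.01. With the replicate block 0 Argonautes and 345 genes passed; the numbers are not shown to pair the samples, and arrays 1, 2 and 4 of the wild type were nearer to a mutant array of another number. The sign of 2 Argonautes changed: alg-3 was -0.051 with the length trend removed, -0.0017 with replicate 4 left out as well, and -0.071 to 0.12 with 1 array left out; rde-1 was -0.022, -0.099 and -0.0084 to 0.11 in the same settings and -0.064 with array weights. The cause was not tested. The other 8 kept their direction in all 19 alternatives. Over those alternatives adjusted p ran from 8.29e-04 to 0.316 for nrde-3, from 0.00392 to 0.373 for ergo-1 and from 0.226 to 0.803 for alg-4. alg-3 and alg-4 had the lowest signals of the Argonautes described, and detection above background was not assessed, which limits what can be said of them.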
